A study of Homo sapiens with 24 samples.

Results

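Histone acetyltransferases transfer the acetyl group of acetyl-CoA to lysines of histone tails, and histone deacetylases (HDACs) take it off again. The data described here are the transcript levels of 10 acetyltransferase genes, EP300, CREBBP, KAT2A, KAT2B, KAT5, KAT6A, KAT6B, KAT7, KAT8 and HAT1, in cells given mocetinostat, an inhibitor of class I HDACs. The genes were chosen by name and not by a measured value, though with earlier results of these data known. Each matched 1 of the 57820 genes in the count tables. All 10 passed the filter on low counts in every comparison.

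RNA was sequenced from 24 libraries of U2OS cells, a human osteosarcoma line, in 8 groups of 3 biological replicates. AID-DIvA U2OS cells, which carry a vector for the inducible restriction enzyme AsiSI, were WT or ID3-KO, and were collected either without treatment or after 24 h of mocetinostat and a further 24 h in medium without it (after recovery). Cells labelled U2OS were WT or ID3-KO, and were either untreated or treated with mocetinostat, a stage read here from the methods as collection at the end of the 24 h (before recovery). Stage and cell line label coincide, so they cannot be told apart, and the library names of the U2OS samples also carry the word DivA. In the labels of the AID-DIvA libraries, title and treatment entry contradict each other, and groups follow the titles. The sources used here give no mocetinostat dose for this experiment and do not say whether the KO cells are 1 clone, and the study's tables name the controls DMSO where the labels say untreated.

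The 10 genes fall into families that differ in their catalytic domain. EP300 (p300) and CREBBP (CBP) are large, closely related coactivators that acetylate histone H3 at enhancers and promoters. KAT2A (GCN5) and KAT2B (PCAF) are paralogs that take the same place in the SAGA and ATAC complexes and acetylate H3. The MYST family holds KAT5 (TIP60), which acts in transcription and in DNA double-strand break signalling, KAT6A (MOZ) and KAT6B (MORF), which work on BRPF scaffolds, KAT7 (HBO1), which works on JADE and BRPF scaffolds, and KAT8 (MOF), which acetylates H4 in the MSL and NSL complexes. HAT1 acetylates newly made H4 before it is placed on DNA.

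ID3, the gene targeted in the KO cells, encodes an inhibitor of basic helix-loop-helix factors, which bind DNA at E-boxes. The RefSeq promoter windows of the members (GRCh38.p14, 250 bases before to 50 after a start) were therefore searched for the E-box CANNTG, which reads the same on both strands. The search covered windows of 8 members, 11 windows in all. It held no window of KAT6A or KAT8, so whether their promoters carry an E-box was not tested. An E-box was in 1 window each of 5 members (KAT2A, KAT2B, KAT5, KAT7 and CREBBP), against 68.7% of all 35116 windows of 300 bases. The GC box GGGCGG, on either strand, was in 8 of the 11 windows, against 45% of all windows. The 3 windows below belong to KAT2A and KAT7, the genes called between genotypes in all 4 comparisons described further on, and to KAT2B, the paralog of KAT2A, and capitals mark the E-boxes.
KAT2A, chr17:42121318-42121617, minus strand: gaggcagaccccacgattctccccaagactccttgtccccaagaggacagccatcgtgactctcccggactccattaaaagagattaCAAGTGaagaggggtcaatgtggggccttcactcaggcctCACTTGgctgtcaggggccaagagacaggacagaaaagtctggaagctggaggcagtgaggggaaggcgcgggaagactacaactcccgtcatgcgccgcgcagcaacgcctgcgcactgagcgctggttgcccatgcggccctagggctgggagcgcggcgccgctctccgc
KAT2B, chr3:20040196-20040495, plus strand: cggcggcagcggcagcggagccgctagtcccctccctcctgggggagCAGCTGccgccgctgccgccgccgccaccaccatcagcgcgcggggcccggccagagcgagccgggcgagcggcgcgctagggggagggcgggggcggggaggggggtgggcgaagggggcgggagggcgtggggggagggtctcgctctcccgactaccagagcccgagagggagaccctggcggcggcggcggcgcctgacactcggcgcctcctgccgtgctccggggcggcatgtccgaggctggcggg
KAT7, chr17:49788431-49788730, plus strand: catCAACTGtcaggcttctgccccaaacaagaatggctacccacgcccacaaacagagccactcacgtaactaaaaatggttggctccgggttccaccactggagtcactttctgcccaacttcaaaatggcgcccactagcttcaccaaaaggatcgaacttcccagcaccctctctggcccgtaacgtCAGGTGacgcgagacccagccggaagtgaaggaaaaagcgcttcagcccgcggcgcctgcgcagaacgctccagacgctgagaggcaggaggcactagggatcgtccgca
KAT2A and KAT7 held 2 E-boxes and 0 GC boxes each, and KAT2B held 1 E-box and 4 GC boxes. These counts were not particular to KAT2A and KAT7. KAT5, not called in all 4 comparisons, also held 2 E-boxes, with 1 GC box, and the EP300 window held 0 of either. The share of all windows with 2 or more E-boxes is not given here. A match is only a run of letters in this window, and binding there was not measured in these data.

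The total counts lay between 37878751 and 76906266 per library. The mesenchymal markers COL1A1, SPARC, VIM and FN1 were expressed in every library, while TWIST1 was at most 0.0273 CPM (read counts scaled by library size) and COL1A2 at most 1.37 CPM, and the summed leukocyte markers reached at most 0.925 CPM. The summed epithelial markers lay between 253 and 441 CPM, mostly KRT8 and KRT18, and the summed endothelial markers reached at most 15.2 CPM, and their part in the results was not tested. ID3 itself was lower in KO than in WT cells at each treatment but was at 29.3 CPM or more in every KO library, so reads of the gene were still counted. CDKN1A, a gene known to rise with HDAC inhibition, had group means of 340 (KO) and 362 CPM (WT) in the libraries titled as recovered, against 177 and 157 CPM in those titled as untreated. H1F0, the other such gene looked at, had means of 988 (KO) and 762 CPM (WT) in the recovered and of 1108 and 763 CPM in the untreated AID-DIvA libraries, so it was not higher with the titles, and the contradiction in the labels was not settled by these genes. Replicate 1 of untreated WT U2OS stood apart: its counts differed from those of the other 2 replicates by a chi-square of 103 and 91.1 per gene, against 4.32 between those 2. Genes with long transcripts were lower in this library, with a median log2 ratio to the other 2 replicates of 0.24 for genes with under 2000 exonic bases and -0.43 for genes with over 10000. Among the members the ratio was -1.21 for EP300, -1.18 for KAT6A, -0.92 for KAT6B and -0.89 for CREBBP, the 4 longest, and 0.32 for KAT2A. Several results that use this group, but not all, are also given without this library.

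**Figure D1:**
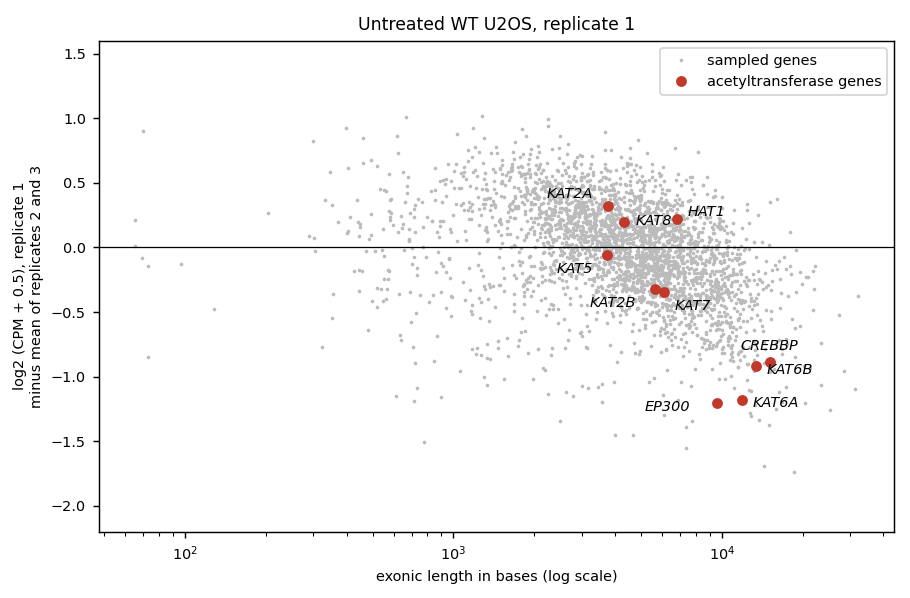
Log2 ratio of replicate 1 of untreated WT U2OS to replicates 2 and 3 (y axis) against exonic length in bases (x axis, log scale), for 3000 sampled genes and the 10 acetyltransferase genes. EP300, KAT6A, KAT6B and CREBBP lie between -1.21 and -0.89, below the median of -0.43 for genes of over 10000 bases.

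All 10 genes were expressed in every library, the lowest count being 423 (KAT2B) and the highest 14024 (CREBBP). In hg19 they lie on chromosome 22 (EP300, 41487790 to 41576081), 16 (CREBBP, 3775055 to 3930727, and KAT8, 31127075 to 31142714), 17 (KAT2A, 40265126 to 40273376, and KAT7, 47865917 to 47906458), 3 (KAT2B, 20081515 to 20195896), 11 (KAT5, 65479467 to 65487075), 8 (KAT6A), 10 (KAT6B, 76585340 to 76792380) and 2 (HAT1, 172778958 to 172848599). Counts cover the exons of each gene, and EP300, KAT5, KAT7 and HAT1 overlap a gene of at least 1 CPM on the opposite strand. Per exonic length, KAT2A was the most abundant in each of the 8 groups, with group means from 18.5 FPKM (CPM divided by the exonic length in kilobases) in treated KO U2OS to 46.8 FPKM in recovered WT AID-DIvA cells. Its paralog KAT2B was the least abundant in the 4 untreated and the 2 recovered groups, at 2.05 to 4.0 FPKM, and KAT6B was the least abundant in both treated U2OS groups, at 1.27 FPKM each. EP300, KAT7, KAT8 and HAT1 had group means between 12.7 and 19.3 FPKM in untreated AID-DIvA cells, where KAT7 was the lowest of them in WT and KAT8 in KO. The summed CPM of the 10 genes was 849 ± 122 (SD, n = 3) in untreated WT U2OS and 564 ± 6.24 after mocetinostat, and 911 ± 12.4 and 558 ± 16.7 in KO U2OS. In untreated WT U2OS the library that stood apart was at 709, against 924 and 915 in replicates 2 and 3. In AID-DIvA cells it was 961 ± 8.07 untreated and 854 ± 14.5 after recovery in WT, and 937 ± 11.5 and 824 ± 25.5 in KO. In these bulk samples, fewer cells that express a gene and less RNA per cell cannot be told apart.

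**Figure D2:**
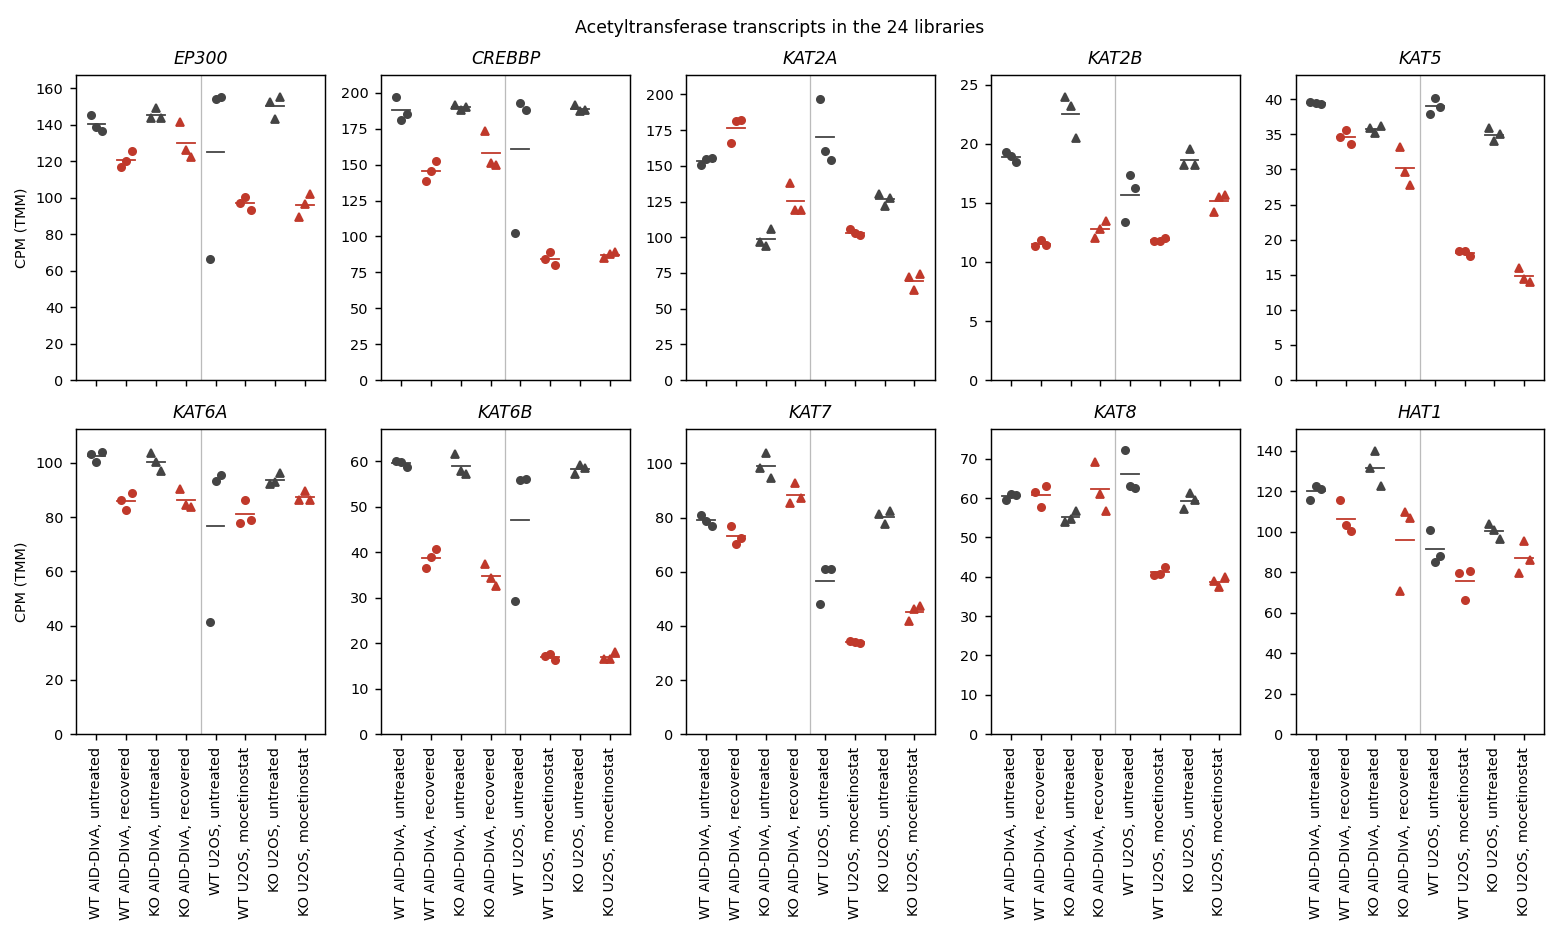
CPM with TMM scaling (y axis, from 0) of each gene in the 24 libraries by group (x axis), with a line at each group mean. In KAT6B both treated U2OS groups average 17.1 CPM, below every untreated library, and KAT2A is higher in the recovered than in the untreated libraries of both genotypes.

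Before recovery most acetyltransferase transcripts were lower with mocetinostat, and none was called higher. In KO U2OS, 9 of 10 fell and 0 rose, against 34% and 35.8% of all 21176 genes tested (edgeR's quasi-likelihood test, Benjamini-Hochberg adjusted p below 0.05), and the median log2 fold change of the 10 was -0.73, against 0.00086 over all genes. In WT U2OS, 7 of 10 fell and 0 rose, against 22.9% and 26% of 21797 genes, with a median of -0.69 against 0.0058. Without replicate 1 of the untreated WT group, 9 of the 10 fell in WT as well, against 32.5% of 22423 genes in that fit. The exception was HAT1 with an adjusted p of 0.102 (edgeR's quasi-likelihood test).

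KAT6B showed the largest fall of the 10. Its CPM in KO U2OS was 57.3, 59.3 and 58.6 in the untreated and 16.5, 16.6 and 18.1 in the treated libraries. In WT U2OS it was 29.4, 55.9 and 56.2 untreated and 17.3, 17.6 and 16.2 treated. Treated and untreated libraries did not overlap, and the lowest untreated value was that of the library that stood apart. KAT6B was 3.40-fold lower in KO (log2 fold change -1.77 ± 0.053 SE, edgeR's quasi-likelihood adjusted p = 4.0e-18) and 2.74-fold lower in WT (-1.46 ± 0.230, adjusted p = 0.00138), or 3.28-fold lower in WT without that library. Its paralog KAT6A had 92.3, 92.9 and 96.2 CPM untreated and 86.2, 89.5 and 86.2 CPM treated in KO U2OS. That difference of -0.10 ± 0.043 lay at the threshold (edgeR's quasi-likelihood adjusted p = 0.0505), and it was called in 5 of 14 alternative settings, among them DESeq2, its size factors, the reverse-strand counts and a replicate block (adjusted p = 0.0376). It was called in 1 of the 6 fits that left out a library, and not with all 24 libraries in one fit (edgeR's quasi-likelihood adjusted p = 0.626). In WT U2OS, KAT6A gave 0.09 ± 0.278 with all libraries (edgeR's quasi-likelihood adjusted p = 0.814) and -0.21 ± 0.040 without the library that stood apart (adjusted p = 6.8e-06). The FPKM ratio of KAT6A to KAT6B was 5.80 ± 0.365 (SD, n = 3) in treated and 1.82 ± 0.042 in untreated KO U2OS, and 5.37 ± 0.236 and 1.80 ± 0.18 in WT U2OS.

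KAT5, the catalytic subunit of the TIP60 complex, had 35.9, 34.0 and 35.0 CPM in untreated and 16.0, 14.4 and 13.9 CPM in treated KO U2OS. The log2 fold change of KAT5 was -1.24 ± 0.059 in KO and -1.10 ± 0.070 in WT (edgeR's quasi-likelihood adjusted p = 1.5e-14 and 1.3e-05). KAT5 overlaps RNASEH2C on the opposite strand, and its reverse-strand counts were 1.42 to 1.97 times its counts from either strand, so its level is uncertain. On the reverse-strand counts KAT5 fell by 1.37 in KO and by 1.29 in WT. KAT7 fell by 0.82 ± 0.051 in KO and by 0.73 ± 0.103 in WT, and KAT8 by 0.61 ± 0.049 and 0.67 ± 0.084. For both genes, treated and untreated libraries did not overlap in either genotype.

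CREBBP and EP300 are close relatives, and CREBBP showed the larger fall. CREBBP had 191, 187 and 188 CPM in untreated and 84.7, 87.6 and 89.4 CPM in treated KO U2OS, a log2 fold change of -1.11 ± 0.043 (edgeR's quasi-likelihood adjusted p = 2.9e-16). EP300 had 152, 143 and 155 CPM and 89.6, 96.4 and 102 CPM, a log2 fold change of -0.64 ± 0.049 (edgeR's quasi-likelihood adjusted p = 8.1e-11). Both genes were lower in every treated KO library than in any untreated one. In WT U2OS, CREBBP fell by 0.92 ± 0.218 (edgeR's quasi-likelihood adjusted p = 0.00961), while EP300, at 66.5, 154 and 155 CPM untreated and 97.1, 101 and 93.3 CPM treated, gave -0.35 ± 0.282 (adjusted p = 0.335). Without the library that stood apart, EP300 in WT was at -0.66 ± 0.036 (edgeR's quasi-likelihood adjusted p = 5.8e-22) and CREBBP at -1.17 ± 0.038. The FPKM ratio of EP300 to CREBBP was 1.73 ± 0.064 in treated and 1.25 ± 0.047 in untreated KO U2OS, and 1.80 ± 0.027 and 1.19 ± 0.148 in WT U2OS. Whether these 2 genes differed in their response was not tested.

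KAT2A had 130, 122 and 127 CPM in untreated and 72.3, 62.8 and 73.9 CPM in treated KO U2OS, and 197, 161 and 154 CPM and 106, 103 and 101 CPM in WT. It fell by 0.85 ± 0.054 in KO and by 0.71 ± 0.106 in WT (edgeR's quasi-likelihood adjusted p = 2.6e-12 and 0.0010). Without replicate 1 of untreated WT U2OS the WT value of KAT2A was -0.60 ± 0.036. KAT2B fell by 0.30 ± 0.062 in KO and by 0.39 ± 0.107 in WT (edgeR's quasi-likelihood adjusted p = 1.8e-04 and 0.0184), and the WT call was lost in 5 of the 6 fits that left out a library (highest adjusted p = 0.0677), while without replicate 1 of the untreated group KAT2B was at -0.49 ± 0.066. HAT1 fell by 0.20 ± 0.054 in KO (edgeR's quasi-likelihood adjusted p = 0.00279) and gave -0.26 ± 0.106 in WT (adjusted p = 0.0752). TMM scaling shifted the treated against the untreated U2OS libraries by -0.09 in KO and -0.10 in WT on the log2 scale compared with scaling by the total alone, which is about the size of the KAT6A difference in KO.

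**Figure D3:**
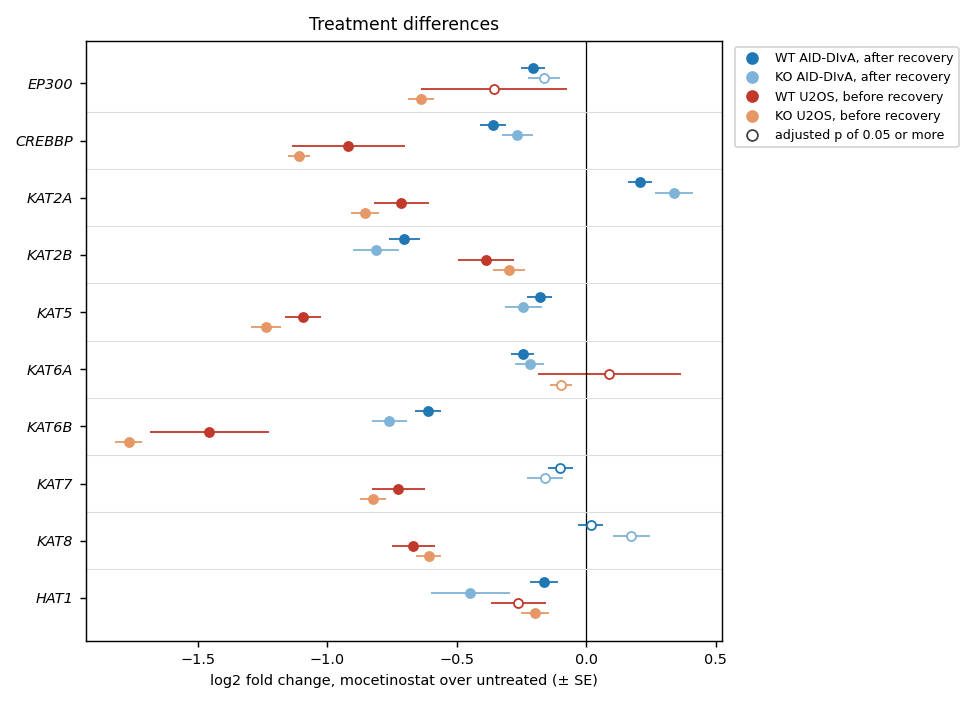
Log2 fold change of mocetinostat over untreated cells with its SE (x axis) for each gene (y axis) in the 4 treatment comparisons, with filled points for an adjusted p below 0.05. KAT6B lies furthest to the left before recovery (-1.77 in KO), and KAT2A lies left of 0 before recovery and right of 0 after it (0.34 in KO).

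After recovery the called differences went both ways. In KO AID-DIvA cells 6 of 10 genes fell and 1 rose, against 19.9% lower and 20.2% higher of 20362 genes tested, and in WT AID-DIvA cells 7 fell and 1 rose, against 23% and 23.9% of 20289 genes. The median log2 fold change of the 10 was -0.23 in KO and -0.19 in WT, against -0.023 and -0.0005 over all genes. The gene that rose was KAT2A in both genotypes, and none of the 10 was beyond 1 on the log2 scale. Over all genes the median log2 fold change differed with length, from 0.05 under 2000 exonic bases to -0.10 over 10000 in KO and from 0.05 to -0.06 in WT, and its part in the values of the long members was not tested.

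KAT2A and KAT2B went apart after recovery. KAT2A had 96.8, 93.9 and 106 CPM in untreated and 138, 119 and 119 CPM in recovered KO cells, and 151, 155 and 156 CPM and 166, 181 and 182 CPM in WT cells. It rose by 0.34 ± 0.073 in KO and by 0.21 ± 0.046 in WT (edgeR's quasi-likelihood adjusted p = 0.00477 and 0.00217). Every recovered library was above every untreated one of its genotype. With all 24 libraries in one fit the rise of KAT2A in WT was not called (0.20 ± 0.081, edgeR's quasi-likelihood adjusted p = 0.061), while that in KO was. KAT2B had 24, 23.2 and 20.4 CPM in untreated and 12.1, 12.8 and 13.5 CPM in recovered KO cells, and 19.3, 19.0 and 18.4 CPM and 11.3, 11.9 and 11.5 CPM in WT cells. It fell by 0.81 ± 0.088 in KO and by 0.70 ± 0.061 in WT (edgeR's quasi-likelihood adjusted p = 7.8e-05 and 7.8e-07), with no overlap in either genotype. The FPKM ratio of KAT2A to KAT2B was 14.7 ± 2.08 in recovered against 6.61 ± 0.977 in untreated KO cells, and 22.8 ± 0.941 against 12.2 ± 0.486 in WT cells. In treated U2OS it was 6.90 ± 0.773 against 10.1 ± 0.760 untreated in KO, and 13.0 ± 0.416 against 16.7 ± 4.67 in WT, where the highest untreated value, 22.1, was that of the library that stood apart.

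**Figure D4:**
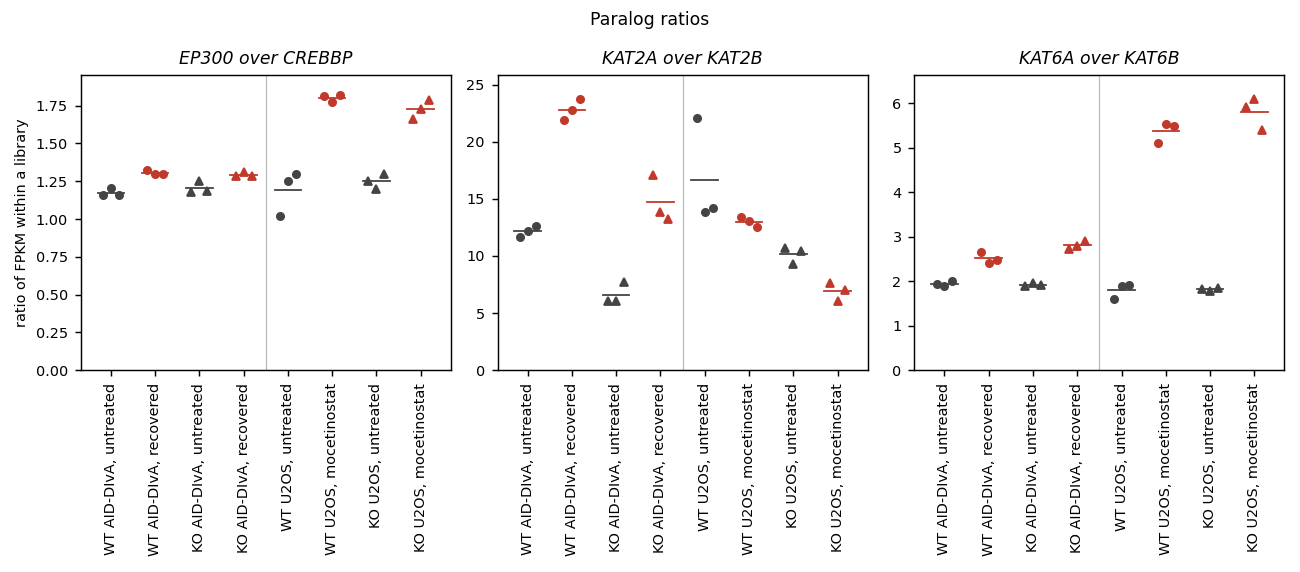
Ratio of FPKM within each library (y axis) for 3 pairs of paralogs by group (x axis), with a line at each group mean. The ratio of KAT6A to KAT6B is highest in treated U2OS (5.37 and 5.80), and that of KAT2A to KAT2B is highest in recovered WT AID-DIvA cells (22.8).

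KAT6B was at 61.7, 57.9 and 57.3 CPM in untreated and 37.5, 34.3 and 32.6 CPM in recovered KO cells, and at 60.1, 59.8 and 58.7 CPM and 36.6, 38.9 and 40.6 CPM in WT cells. Its log2 fold changes were -0.76 ± 0.067 and -0.61 ± 0.051 (edgeR's quasi-likelihood adjusted p = 2.1e-05 and 5.4e-07), second in size to those of KAT2B. CREBBP fell by 0.27 ± 0.060 in KO and by 0.36 ± 0.049 in WT, and KAT6A by 0.22 ± 0.057 and 0.25 ± 0.044. KAT5 fell by 0.24 ± 0.071 in KO, a call lost on the reverse-strand counts (edgeR's quasi-likelihood adjusted p = 0.0522), and by 0.18 ± 0.049 in WT. EP300 fell by 0.21 ± 0.046 in WT and gave -0.16 ± 0.061 in KO (edgeR's quasi-likelihood adjusted p = 0.0574), and KAT7 (-0.16 in KO and -0.10 in WT) and KAT8 (0.17 and 0.02) did not pass the test. HAT1 had 131, 140 and 122 CPM in untreated and 70.7, 109.5 and 107 CPM in recovered KO cells, a log2 fold change of -0.45 ± 0.153 (edgeR's quasi-likelihood adjusted p = 0.0405) that was -0.26 ± 0.061 without the lowest library, replicate 1 of the recovered group. In WT, HAT1 fell by 0.16 ± 0.053. In leave-one-out fits the calls of KAT6A and KAT5 in KO held in 3 and 1 of 6, and leaving out untreated KO replicate 1 brought the count of members called, in either direction, to 4. The calls of KAT6A and KAT5 in KO were also lost with a replicate block (edgeR's quasi-likelihood adjusted p = 0.0535 and 0.0683), and those of HAT1 were lost without any 1 of the 3 untreated KO libraries and, in WT, without replicate 2 or 3 of either group. With all 24 libraries in one fit, the calls of CREBBP and KAT6A in KO and of EP300, KAT6A and HAT1 in WT were lost. In that fit KAT8 was called higher in KO (edgeR's quasi-likelihood adjusted p = 0.0446).

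The responses before and after recovery were compared directly, as the response in AID-DIvA cells minus that in U2OS cells of the same genotype. In KO cells 7 of 10 members had a higher response after recovery and 1 a lower one, against 24.8% and 27.7% of 21947 genes, and in WT cells 5 and 1, against 20.5% and 21.7% of 22238 genes. KAT2A differed by 1.19 ± 0.102 in KO and by 0.91 ± 0.122 in WT (edgeR's quasi-likelihood adjusted p = 1.7e-08 and 4.4e-05). KAT2B was the member with the lower response, at -0.53 ± 0.106 in KO and -0.32 ± 0.120 in WT (edgeR's quasi-likelihood adjusted p = 3.6e-04 and 0.0432), and the WT call held in 3 of 12 leave-one-out fits and was lost with a replicate block (adjusted p = 0.0636). KAT6A (-0.13 in KO and -0.34 in WT) and HAT1 (-0.26 and 0.09) did not pass the test in either genotype. Without replicate 1 of untreated WT U2OS, EP300 and CREBBP also passed in WT cells, at 0.45 ± 0.061 and 0.79 ± 0.067, KAT6A was at -0.04 and HAT1 at 0.01, and KAT2B was at -0.22 ± 0.088. In that fit 26% of 22758 genes had a higher and 26% a lower response after recovery.

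ID3-KO and WT cells differed in KAT2A and KAT7 in all 4 genotype comparisons, in opposite directions. The share of all genes called in all 4 is not given here. In the single comparisons between 15.2% and 37.9% of all genes were called in either direction. KAT2A was lower in KO by 0.66 ± 0.051 on the log2 scale in untreated AID-DIvA cells, a 1.58-fold difference (edgeR's quasi-likelihood adjusted p = 5.4e-08). It was 1.43-fold lower in recovered AID-DIvA cells (edgeR's quasi-likelihood adjusted p = 5.1e-04), 1.48-fold lower in treated U2OS (adjusted p = 3.7e-10) and 1.35-fold lower in untreated U2OS (adjusted p = 0.0307). In each of these 4 comparisons all 3 KO libraries lay below all 3 WT libraries. The comparisons share no library, but they may share the same KO and WT cells. Whether the KO cells are 1 clone is not stated, so a difference between clones and one of genotype cannot be told apart. The call in untreated U2OS was lost when any 1 of the 3 KO libraries or replicate 2 of WT was left out (edgeR's quasi-likelihood test, highest adjusted p = 0.145), while without replicate 1 of WT the difference was -0.32 ± 0.037 (adjusted p = 2.7e-09).

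KAT7 had 98.4, 104 and 94.5 CPM in KO and 81.0, 78.9 and 77.02 CPM in WT untreated AID-DIvA cells. In treated U2OS it had 41.9, 46.4 and 47.3 CPM in KO and 34.3, 34.1 and 33.6 CPM in WT. The KO libraries were all above the WT libraries, by 1.23-fold and 1.33-fold (edgeR's quasi-likelihood adjusted p = 8.9e-05 and 3.3e-07). KAT7 was also higher in KO in recovered AID-DIvA cells (0.26 ± 0.068, edgeR's quasi-likelihood adjusted p = 0.0193) and in untreated U2OS (0.50 ± 0.106, adjusted p = 0.0182). The first of these calls was lost with a replicate block (edgeR's quasi-likelihood adjusted p = 0.101) and without replicate 2 of KO or replicate 2 or 3 of WT, and the second without any 1 of the 3 KO libraries. Without replicate 1 of WT the second was 0.40 ± 0.040.

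In all, 5 of the 10 members differed between genotypes in untreated AID-DIvA cells, against 36.7% of 20441 genes. The counts were 2 in untreated U2OS against 15.2% of 20621 genes, 2 in recovered AID-DIvA cells against 23.7% of 20100 genes, and 5 in treated U2OS against 37.9% of 21800 genes, so the shares of members lay near those of all genes. Without replicate 1 of WT the count in untreated U2OS was 5, against 20.5% higher and 20.6% lower of 20973 genes in that fit. That share of members also lay near the share of all genes. The count in untreated U2OS was 0 without any 1 of the KO libraries and 1 without replicate 2 of WT. In recovered AID-DIvA cells it was 4 without replicate 1 of KO and 1 without replicate 2 of KO or replicate 2 or 3 of WT, and in untreated AID-DIvA cells it was 3 without replicate 2 of WT. KAT2B was higher in KO in untreated AID-DIvA cells (0.23 ± 0.062, edgeR's quasi-likelihood adjusted p = 0.00759) and in treated U2OS (0.35 ± 0.066, adjusted p = 8.5e-05), and KAT5 was lower in the same 2 comparisons (-0.17 ± 0.047 and -0.29 ± 0.064). KAT8 was lower in KO in untreated AID-DIvA cells (-0.16 ± 0.046), and HAT1 was higher in treated U2OS (0.20 ± 0.076), where its libraries overlapped. In leave-one-out fits the call of KAT5 in untreated AID-DIvA cells held in 4 of 6, and those of KAT8 there and of HAT1 in treated U2OS in 3 of 6 each. EP300, CREBBP, KAT6A and KAT6B passed the test in none of the 4, with values from -0.17 to 0.31, and without replicate 1 of WT their values in untreated U2OS lay between -0.04 (EP300) and 0.06 (KAT6B). On the reverse-strand counts KAT5 was also lower in KO in untreated U2OS, at -0.27 ± 0.074 (edgeR's quasi-likelihood adjusted p = 0.0465), against -0.16 ± 0.068 on the counts from either strand (adjusted p = 0.166).

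**Figure D5:**
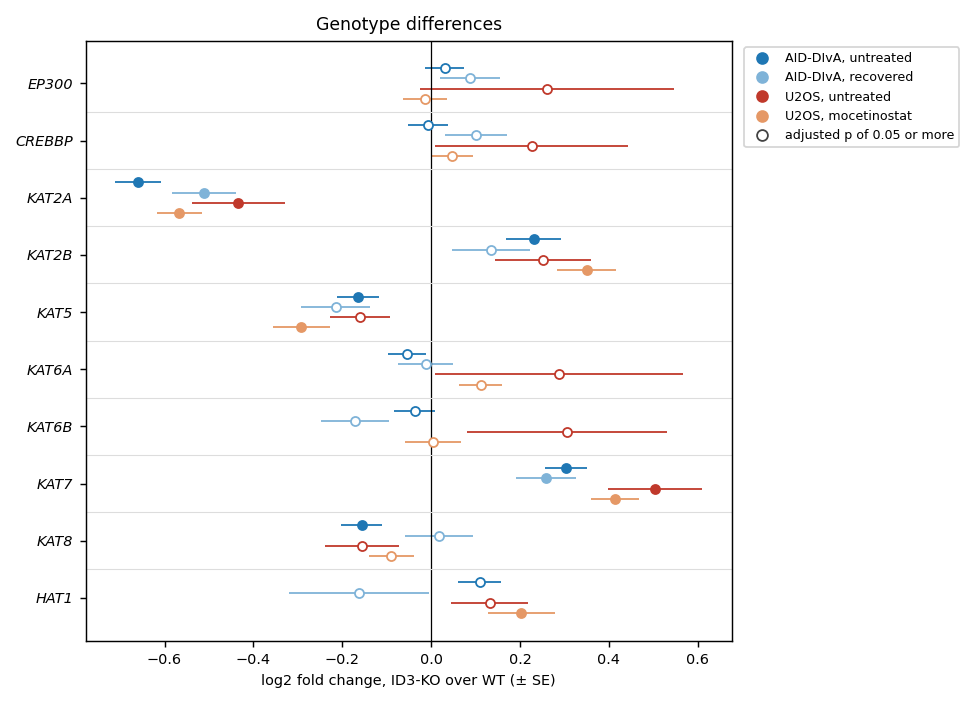
Log2 fold change of ID3-KO over WT with its SE (x axis) for each gene (y axis) in the 4 genotype comparisons, with filled points for an adjusted p below 0.05. KAT2A lies left of 0 (-0.66 to -0.43) and KAT7 right of 0 (0.26 to 0.50) with filled points in all 4.

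In the test of whether the response to mocetinostat differed between genotypes, 0 of 10 members passed in AID-DIvA cells and 0 of 10 in U2OS with edgeR's quasi-likelihood test, against 1.21% of 21265 and 2.15% of 22647 genes. At an unadjusted p below 0.05 the count was also 0 in both, with edgeR and with DESeq2. The log2 differences of the responses, KO minus WT, ran from -0.28 ± 0.192 (HAT1) to 0.16 ± 0.087 (KAT8) in AID-DIvA cells and from -0.31 ± 0.244 (KAT6B) to 0.09 ± 0.122 (KAT2B) in U2OS. Without replicate 1 of untreated WT U2OS the values in U2OS ran from -0.26 (KAT2A) to 0.20 (KAT2B), with KAT6B at -0.06, and KAT2A passed, at -0.26 ± 0.069 (edgeR's quasi-likelihood adjusted p = 0.0125). Of the 23164 genes tested in that fit, 4.46% passed with a value above 0 and 4.56% with a value below 0. The share of members, 1 of 10, thus lay near that of all genes.

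The partners of these enzymes were followed in lists of subunits, and the genes named from them are those that passed the test in the same direction in all 4 treatment comparisons. The lists overlap, and MEAF6 stands in the TIP60 and the MOZ, MORF and HBO1 lists. TRRAP stands in the TIP60 and the SAGA and ATAC lists, and WDR5 in the SAGA and ATAC and the MSL and NSL lists. Of all genes tested, 34% fell and 35.8% rose in KO U2OS and 22.9% and 26% in WT U2OS, and 19.9% and 20.2% in recovered KO and 23% and 23.9% in recovered WT AID-DIvA cells. Counts in WT U2OS without the library that stood apart, an alternative chosen after the data were seen, stand against 32.5% lower and 33.9% higher of all genes in that fit. Of the 9 subunits listed for the MOZ, MORF and HBO1 complexes, the BRPF and JADE scaffolds with ING4, ING5 and MEAF6, 8 fell and 1 rose in KO U2OS. In WT U2OS 7 fell, or 8 without the library that stood apart. The median log2 fold change was -0.84 in each genotype with all libraries. BRPF3, a scaffold subunit, fell by 1.32 and 0.91 in U2OS and by 0.65 and 0.47 in AID-DIvA cells (KO and WT), and JADE1, listed as PHF17, fell by 1.02, 0.85, 0.67 and 0.54. Of the 11 MSL and NSL subunits, 9 fell and 1 rose in KO U2OS and 7 fell and 1 rose in WT U2OS, or 9 and 1 without that library, with medians of -0.56 and -0.58. MSL1, the scaffold of KAT8 in the MSL complex, fell by 1.26 and 1.20 in U2OS and by 0.23 and 0.15 in AID-DIvA cells, and was lower in KO than in WT in all 4 genotype comparisons, by 0.54 to 0.64. MSL3 fell by 0.31 to 0.40 in the 4 treatment comparisons.

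Of the 17 TIP60 complex subunits, 11 fell and 2 rose in KO U2OS and 10 fell in WT U2OS, with medians of -0.30 and -0.40, against 34% and 22.9% of all genes that fell. Without the library that stood apart 13 fell and 2 rose in WT. EPC1, a scaffold of the catalytic module of KAT5, fell by 1.94 ± 0.058 in KO and 1.70 ± 0.121 in WT U2OS, and by 0.61 and 0.48 after recovery. Its paralog EPC2 fell by 0.26 to 0.81 and ING3, a subunit of the same module, by 0.26 to 0.83. Of the SAGA and ATAC subunits tested, 19 of 24 fell and 3 rose in KO U2OS, and 15 of 25 fell and 1 rose in WT U2OS, with medians of -0.36 and -0.44. Without that library 20 of 25 fell and 2 rose in WT. TAF9B fell by 0.37 to 0.55 and ZZZ3 by 0.32 to 0.53. After recovery (KO and WT), 11 and 10 of 24 SAGA and ATAC subunits, 7 and 8 of 17 TIP60 subunits, 4 and 6 of 11 MSL and NSL subunits and 2 and 6 of 9 MOZ, MORF and HBO1 subunits fell, against 19.9% and 23% of all genes. In the same order of lists 2 and 1, 2 and 2, 0 and 0, and 2 and 2 rose, against 20.2% and 23.9% of all genes, and the medians of these lists lay between -0.17 and -0.07.

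Among the HAT1 partners and H3-H4 chaperones, 5 of 7 fell in KO and 6 of 7 in WT U2OS, and after recovery 2 fell and 1 rose in KO and 2 fell and 3 rose in WT, against the shares of all genes given above. Without the library that stood apart the count in WT U2OS was also 6. ASF1A, a chaperone of H3-H4, fell by 0.14 to 0.67 over the 4 comparisons. Of 9 tested partners of CBP and p300, 5 fell and 3 rose in KO and 2 fell and 3 rose in WT U2OS, with 3 and 1, and 5 and 1, after recovery. Without that library 4 fell and 4 rose in WT U2OS, and with all libraries the shares in WT U2OS lay near those of all genes. CITED2, which binds CBP and p300, rose by 1.47 ± 0.048 in KO and 2.10 ± 0.109 in WT U2OS and by 0.66 and 0.72 after recovery, and the response in U2OS was smaller in KO by a direct test (-0.63 ± 0.119, edgeR's quasi-likelihood adjusted p = 0.0125). EID1, an inhibitor of p300, fell by 0.30 to 0.76. Of 16 other acetyltransferases and coactivators, 10 fell and 2 rose in KO and 2 fell and 2 rose in WT U2OS, with 8 and 1, and 9 and 1, after recovery, and 10 fell and 3 rose in WT U2OS without that library. NCOA2, a nuclear receptor coactivator, fell by 0.46 to 1.34. Of the 6 genes of acetyl-CoA supply, 4 fell and 1 rose in KO and 2 fell and 1 rose in WT U2OS, with 0 and 1, and 1 and 1, after recovery, and in WT U2OS 4 fell and 1 rose without that library. With 6 genes these shares say little beside the 34% and 22.9% of all genes that fell in KO and WT U2OS.

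KAT6B and KAT7 had the widest range of group means, 1.77 and 1.53 on the log2 scale, and KAT6A the narrowest, 0.51. Over the 24 libraries and 15583 genes, the genes whose log2 CPM ran most like KAT6B were TIMELESS (Pearson r = 0.994), FBXL19-AS1 (0.988) and ASXL1 (0.987), and those most like KAT7 were COIL (0.984), C2orf48 (0.979) and CERS2 (0.976). Within the 10 genes, KAT6B ran most like CREBBP (r = 0.978), while KAT2A and KAT2B gave -0.176. These coefficients describe libraries that share groups and cell lines.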

How the data were processed

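RNA-seq counts per gene were taken for 24 libraries. The authors made stranded total RNA libraries, aligned the read pairs with STAR to hg19/GRCh37 in the Roddy workflow and counted with featureCounts. They deposited raw counts per gene from either strand (used here) and by strand. The deposited FPKM column served only as an alternative for levels, and the deposited TPM column was not used. The annotation named in the methods carries other identifier versions than the files.

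Counts were tested in R 4.3.3 with edgeR 4.0.16: TMM, filterByExpr, a robust quasi-likelihood fit on the libraries compared, and Benjamini-Hochberg adjustment over all genes tested, with calls at an adjusted p below 0.05. The SE is the log2 fold change over the square root of F. CPM use TMM factors over 24 libraries, and FPKM in the text are these CPM per exonic kilobase. P-values set a difference between groups against the spread between 3 replicates per group, an estimate that borrows from all genes tested. They do not tell a difference between clones from one of genotype.

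The members and lists were chosen with earlier results of these data known. Named genes were the members, up to 3 genes per list and direction that passed in all 4 treatment comparisons, and the 3 genes most like each of the 2 members of widest range. Alternatives were DESeq2 1.42.0, its size factors, no filter, at least 10 counts in every library, a log2 fold change beyond 1, all 24 libraries in one fit, reverse-strand counts, a replicate block, each library left out, CPM without TMM and the deposited FPKM. The counts of the lists without replicate 1 of untreated WT U2OS were added after the data were seen. The steps were tested on simulated data.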

Additional observations from a re-analysis of the deposited data

Results flagged for a closer look

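The responses of several members to mocetinostat differed between AID-DIvA cells after recovery and U2OS cells before it, by a direct test of the difference (edgeR's quasi-likelihood test, adjusted p below 0.05). In KO cells the log2 differences were 1.19 for KAT2A, 1.0 for KAT6B, 0.99 for KAT5, 0.84 for CREBBP, 0.78 for KAT8, 0.66 for KAT7, 0.47 for EP300 and -0.53 for KAT2B. In WT cells they were 0.91 for KAT2A, 0.91 for KAT5, 0.84 for KAT6B, 0.68 for KAT8, 0.62 for KAT7 and -0.32 for KAT2B. KAT2A went from a fall to a rise in both genotypes, and KAT2B was the one gene among these with the larger fall after recovery. Stage and cell line label cannot be told apart. Groups of 3 are too small for a test of single outlying samples.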

How the results depend on the processing

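The number of the 10 members called was within 1.5 times the value reported under DESeq2, its size factors, no filter, at least 10 counts in every library and the reverse-strand counts. With all 24 libraries in one fit it was 3 for genotype in untreated AID-DIvA cells and 4 for treatment in WT AID-DIvA cells. Requiring a log2 fold change beyond 1 left 0 members in all 4 genotype comparisons, in both AID-DIvA treatment comparisons and in the WT difference between stages, 3 and 2 in the KO and WT U2OS treatment comparisons and 2 in the KO difference between stages. With each library left out in turn, the counts were 1 to 4 (genotype, recovered AID-DIvA), 4 to 6 (treated U2OS), 3 to 6 (untreated AID-DIvA), 0 to 5 (untreated U2OS), 4 to 8, 9 to 10, 7 to 9 and 6 to 9 (treatment in KO AID-DIvA, KO U2OS, WT AID-DIvA and WT U2OS), 8 and 5 to 8 (stages, KO and WT) and 0 and 0 to 1 (interactions, AID-DIvA and U2OS). The value of KAT6A in WT U2OS turned to -0.21 without replicate 1 of the untreated group and ran up to 0.27 without one of the others. The causes were not tested. No pairing of the samples by replicate number was seen, as correlations of same-numbered deviations ran from -0.30 to 0.18. With so few replicates this cannot show that the samples were unpaired. With a replicate block 1 member was called for genotype in recovered AID-DIvA cells, while 115 of 120 member tests kept their side of the threshold. CPM without TMM and the deposited FPKM bear on levels only.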
